A study of Cucumis sativus with 12 samples.

Results

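Leaf RNA of cucumber was compared between 12 h and 3 h of cold treatment, when the seedlings of both groups were already in the cold. The comparison rests on 6 of the 12 libraries of a cold time course, 3 at 12 h and 3 at 3 h. The 3 libraries at 0 h (without cold treatment) were used to tell which early changes had ended and which had begun later, and 3 more were taken at 24 h. All groups were leaves of the inbred line JinYan No. 4 at the stage of 3 true leaves, and the cold regime was a day of 12 h at 15 °C and a night of 12 h at 6 °C. Before the cold the seedlings had grown in warmer days and nights and with a longer day. Comparisons with 0 h thus hold a change of day length together with that of temperature. The hour at which the cold began is not stated in the sources used here. The length of the cold, the time of day, the light and the temperature at sampling therefore cannot be told apart between 12 h and 3 h. Values are FPKM, the fragments mapped to a gene scaled by its length and by the mapped total of the library.

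Plants meet a fall in temperature with an early wave of calcium signals, transcription factors such as the DREB1 (CBF) and ERF families, and protective products such as dehydrins, galactinol and chaperones. Many of these early transcripts are known from Arabidopsis to be brief, and the response to cold is gated by the circadian clock, in which morning factors of the LHY type and later genes such as the pseudo-response regulators, GIGANTEA and the adagio F-box proteins follow one another through the day. Genes of the light-harvesting antenna and of nitrate assimilation are also known to change through the day in leaves.

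The 6 libraries were alike in their totals. The FPKM of the 24317 listed genes summed to between 582011 and 586297 at 12 h and to between 567238 and 572799 at 3 h, and 18678 to 18850 genes were above 0 at 12 h, against 19035 to 19178 at 3 h. Depth is not stated in the sources used here. The steps between very low values placed the other libraries within 0.947 to 1.06 times the depth of 3 h replicate 1. This rests on the 21 to 29 ratios that fell together, out of 173 to 229 for each library. Across tested genes, log2 values of libraries of the same time correlated at 0.984 to 0.989 and those of 12 h with 3 h at 0.888 to 0.903. The leaf label fitted the most abundant transcript, that of the RuBisCO small chain, which took 4.61% to 5.31% of the FPKM at 12 h and 2.34% to 2.69% at 3 h.

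Between 3 and 12 h far more genes went down than up at the scale of the deposited values. Of the 17497 tested genes, 1049 (6.00%) were higher and 2678 (15.3%) lower at 12 h than at 3 h. Calls were made with limma on log2(FPKM + 0.5) and required a change of over 2-fold (a log2 change beyond 1 in size) with a Benjamini-Hochberg adjusted p under 0.05. Log2 changes are given on this scale, on which genes with low FPKM appear to change less than they did. The libraries of the 2 times did not overlap for 12566 tested genes (71.8%), and 3700 genes (21.1%) were both called and without overlap, so that an absence of overlap alone was the common case. The balance of directions depended on how the libraries were scaled. Over all tested genes the median log2 change was -0.29 as deposited, -0.03 after rescaling each library by its median ratio and 0.00 after quantile normalization. The calls then became 1621 higher and 1759 lower, or 1658 and 1654. The share of calls that were higher was 28.1% as deposited, 48.0% with the median ratio and 50.1% with quantiles. Under all 3 scalings the same direction was called for 1033 of the 1049 higher genes and for 1580 of the 2678 lower genes, and 0 genes were called in opposite directions.

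To see which early changes ended, each gene was placed by its calls at 3 h against 0 h, at 12 h against 3 h and at 12 h against 0 h. These comparisons share libraries (the 3 h libraries enter both of the first ones), so the counts describe the genes and carry no test. Against 0 h, 1731 genes (9.89%) were higher and 943 (5.39%) lower at 3 h, and 1684 (9.62%) were higher and 2912 (16.6%) lower at 12 h. Of the 1731 early rises, 794 (45.9%) had ended at 12 h, meaning that they were called lower than at 3 h and not higher than at 0 h. A further 85 (4.9%) had partly reversed, 428 (24.7%) were held without a call between the times, 127 (7.3%) rose further, and 297 (17.2%) were resolved by neither comparison. Of the 943 early falls, 128 (13.6%) had ended, 3 (0.3%) had partly reversed, 488 (51.7%) were held, 154 (16.3%) fell further and 170 (18.0%) were not resolved. The ended shares of early rises and early falls were 39.1% and 18.1% after median-ratio rescaling, and 40.5% and 17.3% with quantile normalization.

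**Figure D1:**
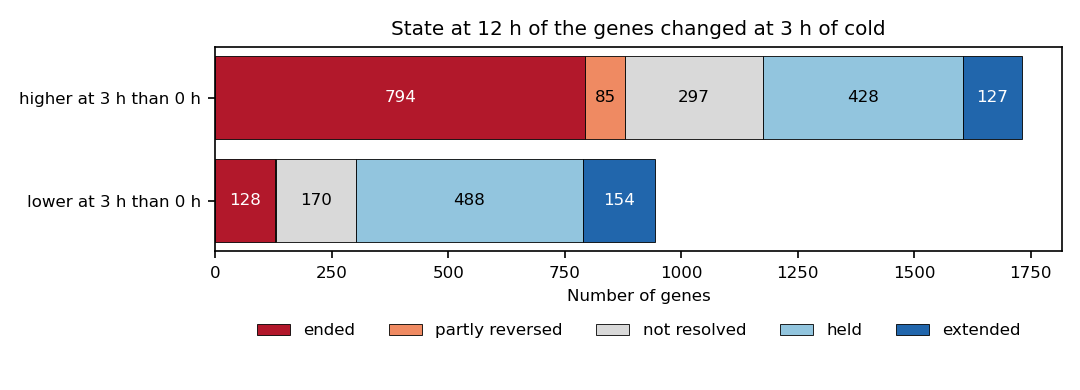
Number of genes called higher (upper bar) or lower (lower bar) at 3 h than at 0 h, split by their state at 12 h of cold. Ended changes made up 794 of 1731 early rises and 128 of 943 early falls; the 3 early falls that partly reversed are too few to be labelled in the bar.

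Some changes overshot and others began late. At 12 h, 93 of the 794 ended rises were called below their 0 h level, and 19 of the 128 ended falls above it. Of the 1049 genes higher at 12 h than at 3 h, 606 (57.8%) were later rises, not called at 3 h and called above both 3 h and 0 h at 12 h. Of the 2678 lower genes, 1094 (40.9%) were later falls by the same rule, 794 (29.6%) were the ended rises, and 551 (20.6%) were not called against 0 h at either time. Scaling moved these counts. Later falls numbered 591 after median-ratio rescaling and 550 with quantile normalization, where later rises numbered 910 and 903.

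The gene lists below were drawn from the descriptions in the deposited annotation, and their calls as deposited are read against the 6.00% higher and 15.3% lower of all tested genes. List counts after median-ratio rescaling are to be read against 1621 higher and 1759 lower of all 17497 tested genes. Those with quantile normalization are to be read against 1658 and 1654. The heat shock, desaturase and wax, and LEA and dehydrin lists had, as deposited, the largest shares of lower members among the plotted lists, at 45.8%, 45.7% and 44.4%.

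**Figure D2:**
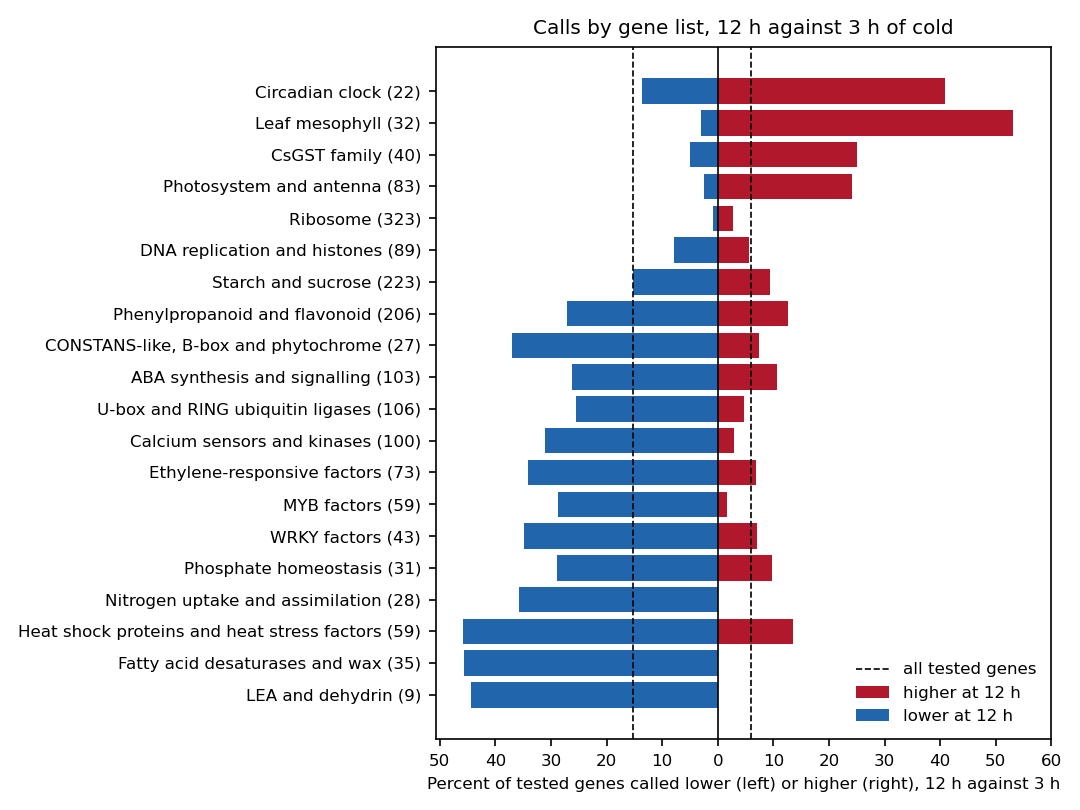
Percent of the tested members of 20 gene lists called lower (left, blue) or higher (right, red) at 12 h than at 3 h of cold; the number of tested members is in parentheses and the dashed lines mark 15.3% lower and 6.00% higher over all tested genes. The heat shock list had 27 of 59 members lower, and the circadian clock list had 9 of 22 members higher.

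Among the early rises that ended, the lowest log2 change of all named genes was in phosphate signalling. SPX1 (SPX domain-containing protein 1, CsaV3_1G030190), whose Arabidopsis counterpart binds and restrains the main activator of phosphate starvation genes, had 5.33, 0.664 and 1.46 FPKM at 12 h, against 323, 254 and 309 FPKM at 3 h. Every 12 h library was far under every 3 h library, and the log2 change was -6.96 ± 0.58 SE (limma, adjusted p = 2.1e-06). The mean at 0 h was 4.50 FPKM. A putative glycerol-3-phosphate transporter (CsaV3_5G005700) had 26.6, 15.9 and 16.3 FPKM at 12 h, against 536, 500 and 528 FPKM at 3 h (limma, log2 change -4.74 ± 0.15 SE, adjusted p = 2.26e-10). Its 12 h libraries lay also below its mean of 153 FPKM at 0 h. A second SPX1 gene (CsaV3_2G002890), chosen after its values were seen, averaged 16.8 ± 3.51 FPKM at 12 h and 341 ± 12.3 FPKM at 3 h (SD, n = 3 each). In the list of phosphate homeostasis 3 of 31 tested genes were higher and 9 lower, with a median log2 fold change of -0.52, and 6 of its 8 early rises had ended. After median-ratio rescaling 5 were higher and 6 lower, and with quantile normalization 6 and 6, so the excess of lower calls held only for the values as deposited. The transporters split. PHO1 homolog 3-like (CsaV3_5G033010), of a family that exports phosphate from cells, had 21.9, 16.6 and 13.9 FPKM at 12 h, against 5.47, 5.69 and 5.55 FPKM at 3 h (limma, log2 change 1.54, adjusted p = 7.77e-06). Another gene of that name (CsaV3_5G025280), an early rise that ended, had 9.6, 4.59 and 6.37 FPKM at 12 h, against 70.8, 91.3 and 93.6 FPKM at 3 h (limma, log2 change -3.59, adjusted p = 5.97e-07). PHO1 (CsaV3_3G011910) and PHO1 homolog 9-like (CsaV3_5G038220) also fell, with log2 changes of -1.46 and -2.24. The other tested PHO1 homologs were not called.

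Transcripts of heat shock proteins, which keep other proteins from aggregating, changed in both directions, with more genes lower than higher. Of 59 tested heat shock proteins and heat stress factors, 8 were higher and 27 lower at 12 h than at 3 h, with a median log2 fold change of -0.85, and 19 of the 35 that had risen at 3 h had ended. After median-ratio rescaling the counts were 11 higher and 21 lower, and with quantile normalization 9 and 22. A class I heat shock protein-like gene (CsaV3_3G027480) had 0.0642, 0 and 0.065 FPKM at 12 h, against 24.7, 29.7 and 28.4 FPKM at 3 h (limma, log2 change -5.69 ± 0.25 SE, adjusted p = 2.62e-09). It was thus close to 0 in every 12 h library, as it was at 0 h with a mean of 0.251 FPKM. The stromal 70 kDa heat shock-related protein (CsaV3_7G024760), a chloroplast chaperone, had 2.22, 0.786 and 1.34 FPKM at 12 h, against 54.2, 58.1 and 62.7 FPKM at 3 h (limma, log2 change -4.98, adjusted p = 3.73e-08). FTSH 6 (CsaV3_5G038040), a protease of the thylakoid membrane, had 0.52, 0.103 and 0.114 FPKM at 12 h, against 31.2, 35.5 and 36.6 FPKM at 3 h (limma, log2 change -5.59 ± 0.30 SE, adjusted p = 1.68e-08).

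By type, in groups formed after the values were seen, 14 of 23 small heat shock proteins were lower and 2 higher, 4 of 11 HSP70-type genes were lower, and 8 of 18 heat stress factors were lower and 4 higher. The number of lower heat stress factors was 4 under either rescaling. Among the members that rose, heat stress transcription factor A-6b (CsaV3_3G012910) had 51.5, 43.8 and 42.2 FPKM at 12 h, against 0.881, 1.13 and 0.687 FPKM at 3 h (limma, log2 change 5.06 ± 0.12 SE, adjusted p = 3.47e-11), and its mean at 0 h was 1.57 FPKM. The 15.4 kDa class V heat shock protein (CsaV3_1G010860) had 90.7, 102 and 94.6 FPKM at 12 h, against 6.43, 7.32 and 5.24 FPKM at 3 h (limma, log2 change 3.83, adjusted p = 8.92e-11). Both were later rises, and neither showed any overlap between the times. Of 2 heat shock protein 83 genes of the HSP90 type, which have adjacent identifiers and were chosen after their values were seen, CsaV3_3G017490 rose by 2.04 and CsaV3_3G017480 fell by 3.39 on the log2 scale.

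Phenylalanine ammonia-lyase (PAL), which makes cinnamic acid from phenylalanine and so opens the phenylpropanoid pathway, mostly fell. Of 15 tested PAL genes, 1 was higher and 11 lower at 12 h than at 3 h under each of the 3 scalings. The median log2 fold change was -3.41, and 9 of the 10 that had risen at 3 h had ended. CsaV3_4G002290 had 4.93, 1.55 and 2.14 FPKM at 12 h, against 127, 157 and 129 FPKM at 3 h (limma, log2 change -5.48 ± 0.58 SE, adjusted p = 1.2e-05). CsaV3_6G039710 had 0.989, 0.627 and 0.658 FPKM at 12 h, against 47.8, 68.9 and 48.7 FPKM at 3 h (limma, log2 change -5.46 ± 0.56 SE, adjusted p = 9.54e-06). In both genes the 12 h libraries were beneath the 0 h means of 6.76 and 2.12 FPKM, without a call against 0 h. Sequences were not compared here, and neighbours among the 15 genes may share reads, so they should not be taken as 15 separate measurements. How reads that map to several genes were assigned is not stated in the sources used here. The remaining pathway was mixed. Of 206 tested phenylpropanoid and flavonoid genes 26 were higher and 56 lower, or 32 and 48 after median-ratio rescaling and 32 and 46 with quantile normalization. Among the higher ones, a phenolic glucoside malonyltransferase 2-like gene (CsaV3_1G033870), whose product adds malonyl groups to phenolic glucosides, had 67.6, 71.7 and 72.9 FPKM at 12 h, against 1.14, 0.882 and 0.597 FPKM at 3 h (limma, log2 change 5.72, adjusted p = 2.29e-10).

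Several families of early regulators had more members lower than higher at 12 h, and the lower ones included ended rises and later falls. The NAC factors were an exception, with 5 of 41 tested genes higher and 4 lower. Their calls were 7 higher and 3 lower after median-ratio rescaling and 8 and 4 with quantile normalization. Of the 8 NAC genes that had risen at 3 h, 2 had ended. In the U-box and RING list of ubiquitin ligases, which mark proteins for breakdown, 5 of 106 tested genes were higher and 27 lower. Of the ethylene-responsive factors 5 of 73 were higher and 25 lower, of the WRKY factors 3 of 43 were higher and 15 lower, and of the MYB factors 1 of 59 was higher and 17 lower. Among calcium sensors and kinases 3 of 100 were higher and 31 lower. Of the genes that had risen at 3 h, 11 of 18 ubiquitin ligases, 12 of 28 ethylene-responsive factors, 11 of 16 WRKY factors, 7 of 13 MYB factors and 14 of 24 calcium sensors and kinases had ended, beside 45.9% of all early rises. After median-ratio rescaling the calls were 9 higher and 22 lower for the ligases, 9 and 23 for the ethylene-responsive factors, 5 and 13 for WRKY, 2 and 14 for MYB and 7 and 22 for the calcium list. With quantile normalization they were 9 and 21, 11 and 21, 6 and 13, 3 and 13, and 6 and 22 in that order of lists. PUB23-like (CsaV3_3G038010), a U-box ligase whose Arabidopsis counterpart dampens immune and drought responses, had 0.476, 0.155 and 0.351 FPKM at 12 h, against 72.5, 80.1 and 73.5 FPKM at 3 h. The log2 change was -6.54 ± 0.25 SE (limma, adjusted p = 1.32e-09), and the 0 h mean was 2.04 FPKM. ERF105 (CsaV3_5G004900), an ethylene-responsive factor known in Arabidopsis for a part in freezing tolerance, had 10.7, 8.39 and 6.51 FPKM at 12 h, against 125, 150 and 156 FPKM at 3 h (limma, log2 change -4.02 ± 0.14 SE, adjusted p = 6e-10). The 12 h values bracketed the 0 h mean of 9.70 FPKM, so the rise had ended at its starting level. ERF11 (CsaV3_1G012520) had 0.651, 0.396 and 0.28 FPKM at 12 h, against 36.5, 23.8 and 19.6 FPKM at 3 h (limma, log2 change -4.82, adjusted p = 2.48e-08). WRKY46-like (CsaV3_7G025370) had 4.03, 2.70 and 2.77 FPKM at 12 h, against 49.9, 76.6 and 52.0 FPKM at 3 h (limma, log2 change -4.02, adjusted p = 2.97e-08). The calcium-binding protein PBP1 (CsaV3_3G005500) had 5.52, 2.70 and 3.48 FPKM at 12 h, against 40.2, 50 and 48.3 FPKM at 3 h (limma, log2 change -3.45, adjusted p = 6.64e-08). In each of these 3 genes every 12 h library lay far under every 3 h library. CML19 (CsaV3_1G000650), a calmodulin-like calcium sensor, had 1.45, 1.41 and 1.68 FPKM at 12 h, against 29.0, 43.4 and 22.8 FPKM at 3 h and a mean of 0.361 FPKM at 0 h. It had lost most of its rise in FPKM, and counted as partly reversed because its low 12 h level was still called above 0 h. The exceptions in these families included CRF2-like (CsaV3_5G002210), a cytokinin response factor of the ethylene-responsive family, which rose to 46.9, 45.5 and 44.7 FPKM at 12 h, against 3.72, 3.65 and 4.14 FPKM at 3 h (limma, log2 change 3.41, adjusted p = 3.34e-11).

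Some protective products of the early cold response had fallen as well. The dehydrin DHN1-like (CsaV3_4G005460), of the hydrophilic proteins that protect cells during water loss and freezing, had 2.95, 0.618 and 1.53 FPKM at 12 h, against 49.2, 63.6 and 61.9 FPKM at 3 h (limma, log2 change -4.88 ± 0.44 SE, adjusted p = 3.5e-06). In the LEA and dehydrin list 0 of 9 tested genes were higher and 4 lower, all 4 of them ended rises, with 3 lower under either rescaling. Galactinol synthase, the first enzyme of raffinose synthesis, split by gene. Galactinol synthase 2-like (CsaV3_1G015730) had 7.42, 1.9 and 2.78 FPKM at 12 h, against 56.3, 60.4 and 49.2 FPKM at 3 h (limma, log2 change -3.81 ± 0.48 SE, adjusted p = 4.39e-05), and a galactinol synthase 1-like gene (CsaV3_3G031720) also fell, by 2.55. Another galactinol synthase 1-like gene (CsaV3_5G031520) rose, with 8.98, 9.02 and 13.7 FPKM at 12 h, against 3.56, 3.29 and 2.97 FPKM at 3 h (limma, log2 change 1.53, adjusted p = 0.000983). DREB1A (CsaV3_3G016760), of the CBF family that switches on cold-responsive genes, had 0.115, 0.0811 and 0.0385 FPKM at 12 h, against 6.24, 5.85 and 5.39 FPKM at 3 h (limma, log2 change -3.45, adjusted p = 7.78e-07). The CBF/DREB and cold-regulated list had 0 of 10 tested genes higher and 3 lower as deposited, but 2 higher and 2 lower after either rescaling. Of its 5 early rises 2 had ended and 3 were held. The held ones were 2 DREB2A-like genes and DREB2C (CsaV3_6G002010). The 2 DREB2A-like genes, with log2 changes of 0.86 and 0.81 as deposited, were the 2 called higher after either rescaling. The DREB2A-like gene CsaV3_4G026910 averaged 18.5 FPKM at 12 h and 9.97 FPKM at 3 h, and DREB2C 26.7 and 29.5 FPKM. A further lower member, COR413 plasma membrane protein 2 (CsaV3_2G014340), had 32.4, 21.3 and 20.6 FPKM at 12 h, against 52.4, 54.8 and 59.9 FPKM at 3 h. That log2 change of -1.18 became -0.88 after median-ratio rescaling and -0.96 with quantile normalization, both short of the threshold of 1.

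**Figure D3:**
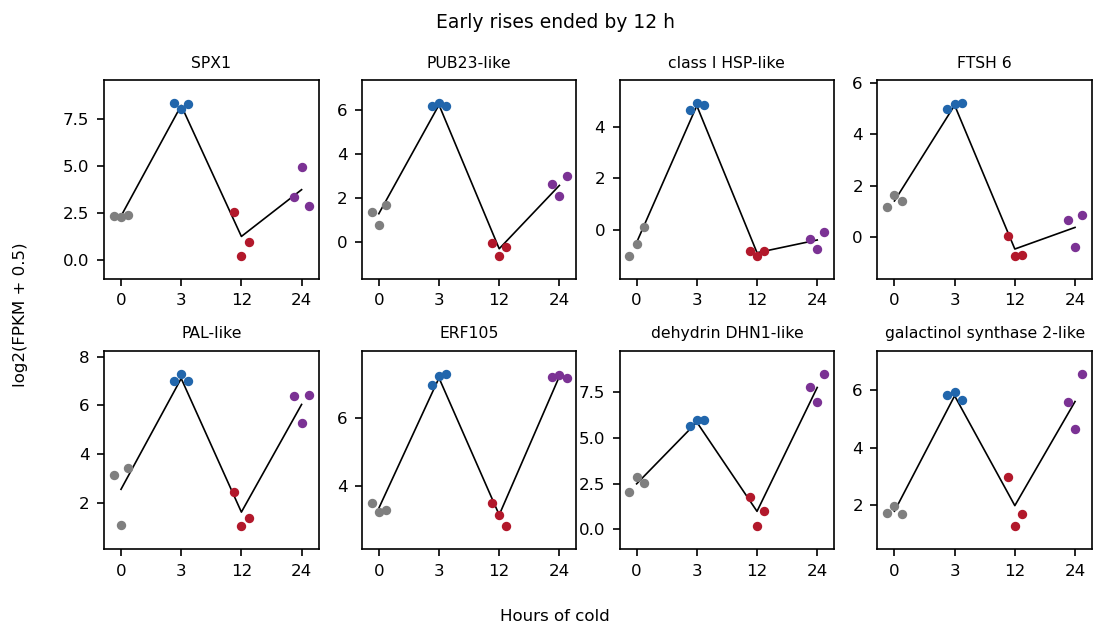
log2(FPKM + 0.5) of 8 early rises that ended, at 0, 3, 12 and 24 h of cold (evenly spaced on the x axis); each point is a library, 3 per time, and the line joins the means. The 12 h points sit below all 3 h points in each panel, from SPX1 at 0.664 to 5.33 FPKM at 12 h to ERF105 at 6.51 to 10.7 FPKM at 12 h.

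Many genes of wax synthesis for the leaf surface also came down. Of 35 tested genes in the list of desaturases and wax 0 were higher and 16 lower as deposited, but 4 higher and 14 lower under either rescaling. The list holds 3 carotenoid desaturases, and without them 0 of 32 genes were higher and 15 lower as deposited, and 3 higher and 13 lower under either rescaling. Of the 18 tested 3-ketoacyl-CoA synthases and ECERIFERUM genes, a group formed after the values were seen, 12 were lower, with a median log2 fold change of -1.64, and 11 after median-ratio rescaling or 10 with quantile normalization, each with 1 higher. Without the carotenoid desaturases, the list had 14 early rises, of which 9 had ended and 5 were held. This group made up 8 of the ended rises and only 1 of the held ones, and the other held ones were desaturases. The 3-ketoacyl-CoA synthase 19 gene (CsaV3_3G012730), whose enzyme type lengthens fatty acids, had 4.29, 2.66 and 3.16 FPKM at 12 h, against 42.2, 41.8 and 40.3 FPKM at 3 h (limma, log2 change -3.46 ± 0.12 SE, adjusted p = 3.59e-10). ECERIFERUM 1 (CsaV3_3G010300), needed for wax alkanes, had 11.4, 10.9 and 9.47 FPKM at 12 h, against 76.9, 77.9 and 68.0 FPKM at 3 h (limma, log2 change -2.75, adjusted p = 1.92e-10). For both, the 12 h libraries were also under the 0 h means of 11.1 and 28.3 FPKM. In the list of epidermis and cuticle markers 2 of 16 tested members were higher and 5 lower, with 3 listed at 0 in all 6 libraries. Its summed level was 2362 to 3033 FPKM at 12 h, against 6162 to 7099 FPKM at 3 h. The lipid-transfer protein 1 gene (CsaV3_3G033150) made up most of this sum and carried its fall. It had 2776, 2603 and 2106 FPKM at 12 h, against 6860, 6603 and 5926 FPKM at 3 h. The list did not move as a whole. One of the 2 higher members, GLABRA 2 (CsaV3_7G033410), had 58.3, 65.6 and 66.1 FPKM at 12 h, against 24.9, 23.2 and 22.2 FPKM at 3 h. In whole leaves fewer cells of a type and less RNA per cell cannot be told apart, and the part of the markers in these results was not tested. Phloem markers summed to 528 to 584 FPKM at 12 h, against 477 to 606 FPKM at 3 h, although 1 of 21 tested members was higher and 7 lower. Under median-ratio rescaling 3 were higher and 5 lower, and with quantile normalization 3 and 4. Xylem markers summed to 10.8 to 12.1 FPKM at 12 h, against 17.1 to 20.0 FPKM at 3 h, with 0 of 12 higher and 1 lower.

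Genes of the circadian clock were among those whose changes began after 3 h. Of 22 tested clock genes, 9 were higher and 3 lower at 12 h than at 3 h, with a median log2 fold change of 0.57, and 7 of the 9 were later rises and the other 2 extended early rises. Both rescalings also gave 9 higher, with 1 lower after median-ratio rescaling and 2 lower with quantile normalization. APRR3 (CsaV3_5G000090), a pseudo-response regulator of the clock, had 336, 379 and 373 FPKM at 12 h, against 3.51, 2.82 and 3.78 FPKM at 3 h (limma, log2 change 6.56 ± 0.10 SE, adjusted p = 1.1e-12). The libraries of each time lay close together, and the mean at 0 h was 2.92 FPKM. Adagio protein 3 (CsaV3_5G014370), of the blue-light F-box family that includes Arabidopsis FKF1, had 48.2, 54.5 and 54.4 FPKM at 12 h, against 0.328, 0.335 and 0.71 FPKM at 3 h (limma, log2 change 5.81 ± 0.15 SE, adjusted p = 4.92e-11). GIGANTEA-like (CsaV3_6G005020), a partner of the adagio proteins, had 295, 309 and 298 FPKM at 12 h, against 16.1, 16.8 and 18.0 FPKM at 3 h (limma, log2 change 4.11 ± 0.06 SE, adjusted p = 1.17e-12). It had already risen at 3 h, above a 0 h mean of 5.80 FPKM, as had an APRR7 gene (CsaV3_4G024430), with 182, 179 and 174 FPKM at 12 h, against 34.1, 32.8 and 35.5 FPKM at 3 h. These 2 genes were chosen after their values were seen.

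Other clock genes fell or were low. LHY-like (CsaV3_6G008360), a morning factor, had 232, 237 and 238 FPKM at 12 h, against 560, 541 and 580 FPKM at 3 h (limma, log2 change -1.25 ± 0.07 SE, adjusted p = 1.23e-08), but only -0.94 after median-ratio rescaling, short of the threshold of 1. The gene annotated as GIGANTEA (CsaV3_7G024490) moved against GIGANTEA-like, with 7.02, 7.23 and 8.04 FPKM at 12 h, against 20.4, 19.3 and 24.6 FPKM at 3 h (limma, log2 change -1.46, adjusted p = 1.18e-06). A second APRR7 gene (CsaV3_5G000530) had 39.9, 20.5 and 23.5 FPKM at 12 h, against 52.5, 59.0 and 62.9 FPKM at 3 h. Its log2 change of -1.10 fell short of the threshold under both rescalings (-0.80 and -0.88) and without 12 h replicate 2. Of the PCL1-like genes, whose Arabidopsis counterpart is part of the evening complex, 3 were called higher at low levels. They had 1.55 to 3.94 FPKM over the 12 h libraries, against 0.0268 to 0.258 FPKM over the 3 h libraries. A further PCL1-like gene (CsaV3_4G029340) was not called, at a log2 change of 0.56. It had 4.51, 6.03 and 8.06 FPKM at 12 h, against 4.16, 3.66 and 4.03 FPKM at 3 h. The PCL1-like genes CsaV3_7G009940 and CsaV3_6G016650 had identical values in each 3 h library, so their reads may not be told apart.

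Among the other genes that rose late, several were close to absent at 3 h. JMJD5 (CsaV3_1G042600), a putative lysine demethylase linked to the clock in Arabidopsis, had 82.7, 84.5 and 98.9 FPKM at 12 h, against 0.645, 1.09 and 0.926 FPKM at 3 h (limma, log2 change 6.01 ± 0.14 SE, adjusted p = 2.33e-11). Thiamine thiazole synthase (CsaV3_3G005340), which makes the thiazole part of thiamine, had 2432, 2835 and 2652 FPKM at 12 h, against 46.6, 47.6 and 50.4 FPKM at 3 h (limma, log2 change 5.76 ± 0.10 SE, adjusted p = 2.3e-12). Its 3 h libraries lay under its 0 h mean of 69.2 FPKM. The cytochrome P450 81E8 gene (CsaV3_6G043630), a monooxygenase, had 251, 181 and 339 FPKM at 12 h, against 0.887, 5.13 and 0.76 FPKM at 3 h (limma, log2 change 6.86 ± 0.49 SE, adjusted p = 5.76e-07). One 3 h library stood above the other two for this gene, yet far under all 12 h libraries. The highest log2 change of all named genes was that of a dnaJ homolog subfamily B member 6-like gene (CsaV3_5G028590), an HSP70 co-chaperone. It had 279, 264 and 276 FPKM at 12 h, against 1.37, 1.78 and 1.08 FPKM at 3 h (limma, log2 change 7.18 ± 0.12 SE, adjusted p = 1.74e-12). This was an early rise that went further, since the 0 h mean was 0.096 FPKM. The other gene of that name (CsaV3_7G034140) fell, with 9.16, 7.95 and 8.26 FPKM at 12 h, against 53.3, 54.3 and 58.0 FPKM at 3 h (limma, log2 change -2.64, adjusted p = 2.35e-10), and over the 51 tested DnaJ genes 5 were higher and 5 lower, or 7 and 3 after median-ratio rescaling and 6 and 4 with quantile normalization.

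**Figure D4:**
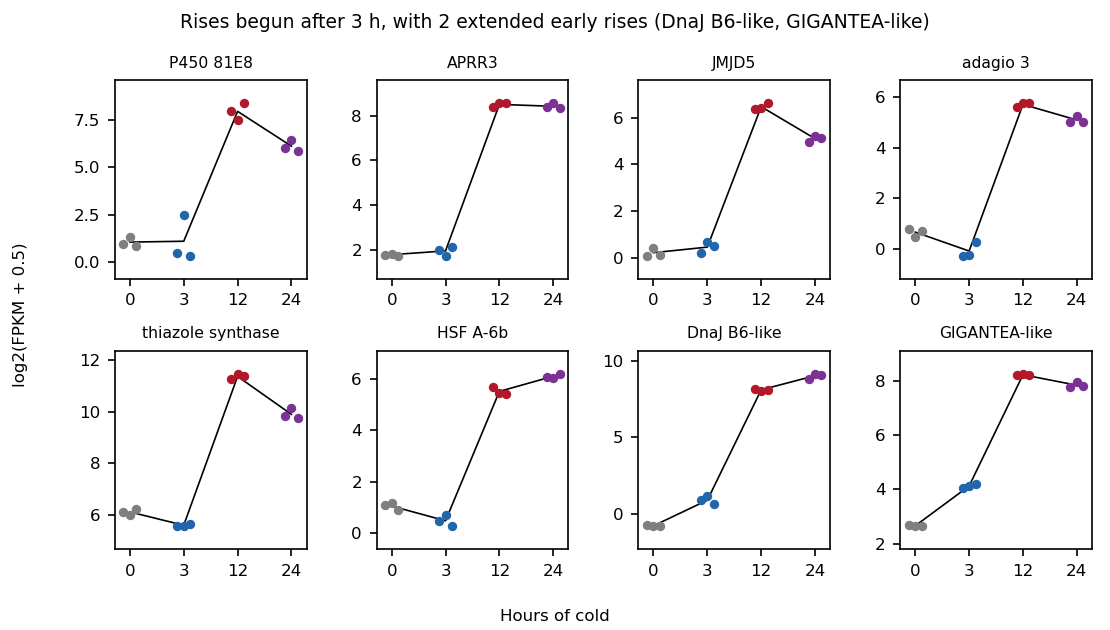
log2(FPKM + 0.5) of 6 later rises and of 2 early rises that went further (DnaJ B6-like, GIGANTEA-like), at 0, 3, 12 and 24 h of cold (evenly spaced on the x axis); each point is a library, 3 per time, and the line joins the means. APRR3 lay at 336 to 379 FPKM in the 12 h libraries, against 2.82 to 3.78 FPKM in the 3 h libraries.

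The light-harvesting antenna, the chlorophyll-binding proteins that feed light energy to the photosystems, rose in most of its genes after 3 h. Of the 18 tested chlorophyll a-b binding proteins 14 were higher and 0 lower at 12 h than at 3 h, 8 of them extending an early rise and 6 rising late, with log2 fold changes from 0.50 to 3.52 over the 18 genes. The count was 16 after median-ratio rescaling and 10 with quantile normalization. An LHCII type 1-like gene (CsaV3_1G032510) had 1814, 2418 and 2170 FPKM at 12 h, against 218, 162 and 177 FPKM at 3 h (limma, log2 change 3.52 ± 0.23 SE, adjusted p = 1.36e-07). An LHCII type I gene (CsaV3_6G051530) had 5540, 7294 and 6713 FPKM at 12 h, against 1294, 1152 and 1200 FPKM at 3 h (limma, log2 change 2.41 ± 0.18 SE, adjusted p = 2.36e-07), and a mean of 334 FPKM at 0 h. Antenna genes are alike in sequence and may share reads. The RuBisCO small chain (CsaV3_5G034360), part of the enzyme that fixes CO2, had 26854, 31113 and 30224 FPKM at 12 h, against 15436, 14150 and 13275 FPKM at 3 h. Its log2 change of 1.04 (limma, adjusted p = 7.73e-06) fell short of the threshold without 3 h replicate 3 and without 12 h replicate 2. Quantile normalization could not test this gene. It was the most abundant in every library, and that method gives the top rank the same value in all libraries. Over the wider photosystem list 20 of 83 tested genes were higher and 2 lower, or 31 and 1 after median-ratio rescaling and 13 and 1 with quantile normalization. The mesophyll markers, which contain the antenna genes, summed to 72644 to 87900 FPKM at 12 h, against 32649 to 37074 FPKM at 3 h, with 4 listed at 0 in all 6 libraries. As FPKM are shares of a library, this larger share moved together with the median of -0.29 over all genes, and its part in that median was not tested. Ribosomal genes mostly stayed within the threshold, with 9 of 323 higher and 3 lower, or 21 and 0 after median-ratio rescaling and 16 and 0 with quantile normalization.

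The glutathione S-transferases (CsGST), which join glutathione to reactive compounds, were among the lists with more rises than falls, 10 of 40 tested genes being higher and 2 lower, with 4 extended and 4 later rises. CsGSTU6 had 122, 51.3 and 110 FPKM at 12 h, against 1.24, 7.95 and 2.6 FPKM at 3 h (limma, log2 change 4.63 ± 0.50 SE, adjusted p = 1.46e-05). CsGSTU5 had 103, 41.5 and 89.9 FPKM at 12 h, against 2.13, 6.68 and 2.35 FPKM at 3 h (limma, log2 change 4.27 ± 0.40 SE, adjusted p = 3.67e-06). In both genes, tandem copies that may share reads, replicate 2 was the lowest library at 12 h and the highest at 3 h, without overlap. The 2 that fell were CsGSTU21 and CsGSTF2. CsGSTU21 had 11.6, 5.58 and 6.32 FPKM at 12 h, against 50, 48.2 and 48.0 FPKM at 3 h (limma, log2 change -2.63, adjusted p = 2.14e-05). CsGSTF2, an early rise that ended, had 14.3, 7.96 and 12.1 FPKM at 12 h, against 38.5, 49.8 and 41.9 FPKM at 3 h (limma, log2 change -1.91, adjusted p = 3.55e-06).

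Hormone genes changed in both directions. In the list of abscisic acid (ABA) synthesis and signalling 11 of 103 tested genes were higher and 27 lower, or 13 and 18 after median-ratio rescaling and 14 and 17 with quantile normalization. NCED5 (CsaV3_1G032340), of the enzymes that set the rate of ABA synthesis, had 7.14, 3.41 and 5.88 FPKM at 12 h, against 0.285, 0.996 and 0.263 FPKM at 3 h (limma, log2 change 2.58, adjusted p = 8.67e-06). The enzymes that break ABA down moved apart. ABA 8'-hydroxylase 3 (CsaV3_7G025110) had 12.1, 6.49 and 10.5 FPKM at 12 h, against 0.61, 1.66 and 0.963 FPKM at 3 h (limma, log2 change 2.70, adjusted p = 2.94e-06). ABA 8'-hydroxylase 1 (CsaV3_4G007140) had 4.06, 2.68 and 1.84 FPKM at 12 h, against 23.3, 26.3 and 29.4 FPKM at 3 h (limma, log2 change -3.05, adjusted p = 1.83e-07). Protein phosphatase 2C 75 (CsaV3_3G016530), of the phosphatase group that restrains ABA signalling, was a later fall, with 13.9, 8.70 and 10.1 FPKM at 12 h, against 96.2, 103 and 117 FPKM at 3 h (limma, log2 change -3.24 ± 0.18 SE, adjusted p = 2.53e-08). Its 3 h libraries lay around the 0 h mean of 105 FPKM. In jasmonate synthesis, allene oxide synthase (CsaV3_2G028330) was an early rise that ended, with 4.21, 2.55 and 3.31 FPKM at 12 h, against 20.3, 24.6 and 27.1 FPKM at 3 h (limma, log2 change -2.68, adjusted p = 1.9e-07). Of 86 tested auxin genes 5 were higher and 21 lower, or 9 and 14 after median-ratio rescaling and 8 and 12 with quantile normalization. Auxin transporter-like protein 2 (CsaV3_3G034000), of the carriers that bring auxin into cells, had 4.14, 4.34 and 3.53 FPKM at 12 h, against 34.7, 33.8 and 30.4 FPKM at 3 h (limma, log2 change -2.90, adjusted p = 3.96e-10).

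The later falls included nitrate assimilation. Of 28 tested genes of nitrogen uptake and assimilation 0 were higher and 10 lower at 12 h than at 3 h, with a median log2 fold change of -0.61, and 9 of the 10 were later falls. The counts were 1 higher and 9 lower after median-ratio rescaling and 0 and 10 with quantile normalization. Ferredoxin-nitrite reductase (CsaV3_3G018610), which turns nitrite into ammonium in the chloroplast, had 40.3, 35.9 and 38.6 FPKM at 12 h, against 308, 285 and 281 FPKM at 3 h (limma, log2 change -2.91 ± 0.20 SE, adjusted p = 1.81e-07). Nitrate reductase performs the step before it, and all 4 tested genes fell, by 2.70 to 2.78 on the log2 scale. The most abundant at 3 h (CsaV3_2G026770), chosen after its values were seen, had 151, 152 and 162 FPKM at 12 h, against 1059, 1001 and 1020 FPKM at 3 h. CsaV3_2G026780 had 11.9, 12.8 and 13.9 FPKM at 12 h, against 82.4, 92.6 and 98.9 FPKM at 3 h, with a wider error (limma, SE 0.77, adjusted p = 0.00859). Its libraries at 0 and 24 h, which enter the same fit, were uneven. The 4 genes have the same description and may share reads, and their sequences were not compared here. Of the uptake genes, chosen after their values were seen, ammonium transporter 1 member 1 (CsaV3_2G012160) had 34.8, 22.6 and 25.1 FPKM at 12 h, against 101, 108 and 96.4 FPKM at 3 h. A high-affinity nitrate transporter 3.1-like gene (CsaV3_1G008910) had 5.78, 3.75 and 3.87 FPKM at 12 h, against 22.2, 23.5 and 20.1 FPKM at 3 h.

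The largest later falls among named genes served varied functions. Patatin-like protein 2 (CsaV3_2G017330), of a family of lipid hydrolases, had 2.31, 1.05 and 0.653 FPKM at 12 h, against 22.7, 21.8 and 21.6 FPKM at 3 h (limma, log2 change -3.72 ± 0.27 SE, adjusted p = 2.25e-07). TORTIFOLIA1 (CsaV3_6G036020), a microtubule protein that keeps organs straight in Arabidopsis, had 1.22, 1.34 and 0.706 FPKM at 12 h, against 15.4, 14.4 and 18.6 FPKM at 3 h (limma, log2 change -3.40, adjusted p = 1.74e-08). The aspartic proteinase PCS1-like (CsaV3_3G017870) had 23.3, 19.0 and 20.6 FPKM at 12 h, against 217, 203 and 211 FPKM at 3 h (limma, log2 change -3.30, adjusted p = 2.18e-09). Sugar carriers of the SWEET family moved in opposite directions. SWEET2 (CsaV3_4G032810) had 32.3, 38.0 and 35.0 FPKM at 12 h, against 181, 167 and 171 FPKM at 3 h (limma, log2 change -2.29, adjusted p = 1.28e-09). SWEET17 (CsaV3_3G014800) had 98.3, 117 and 126 FPKM at 12 h, against 10.5, 10.7 and 9.86 FPKM at 3 h (limma, log2 change 3.39, adjusted p = 5.59e-09).

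Some early falls went on. In the list of CONSTANS-like, B-box and phytochrome genes, which act in light signalling and flowering, 2 of 27 tested genes were higher and 10 lower, and 7 of the 10 extended an early fall. CONSTANS-LIKE 9 (CsaV3_5G034710) had 4.83, 4.52 and 3.61 FPKM at 12 h, against 19.4, 18.0 and 20.1 FPKM at 3 h (limma, log2 change -2.04 ± 0.13 SE, adjusted p = 8.76e-08), and a mean of 92.7 FPKM at 0 h. After median-ratio rescaling 6 members were lower and with quantile normalization 5. CONSTANS-LIKE 14-like (CsaV3_4G002870) went the other way, with 66.5, 65.1 and 69.5 FPKM at 12 h, against 6.62, 8.79 and 8.38 FPKM at 3 h (limma, log2 change 3.01, adjusted p = 2.2e-10). The named gene whose early fall went furthest was root phototropism protein 3-like (CsaV3_1G039050), with 0.969, 0.772 and 1.20 FPKM at 12 h, against 21.3, 20.6 and 19.3 FPKM at 3 h and a mean of 60 FPKM at 0 h.

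Of the 128 early falls that ended, the 5 with the largest log2 change were all called above 0 h at 12 h. The ubiquitin ligase RNF115-like (CsaV3_2G001940) had 20.9, 23.0 and 18.7 FPKM at 12 h, against 0, 0.323 and 0.145 FPKM at 3 h (limma, log2 change 5.05 ± 0.27 SE, adjusted p = 2.05e-08), with a mean of 1.41 FPKM at 0 h. LSF1 (CsaV3_3G042460), a phosphoglucan phosphatase-type protein needed for starch breakdown at night in Arabidopsis, had 20.0, 21.3 and 19.1 FPKM at 12 h, against 1.04, 1.20 and 0.705 FPKM at 3 h (limma, log2 change 3.81 ± 0.13 SE, adjusted p = 3.23e-10). The 0 h mean of 2.69 FPKM was under all of its 12 h libraries. CIPK25-like (CsaV3_3G032810), a kinase that works with calcium sensors, had 17.7, 19.1 and 15.7 FPKM at 12 h, against 0.167, 0.659 and 0.547 FPKM at 3 h (limma, log2 change 4.27, adjusted p = 1.55e-08). A flavin-containing monooxygenase 1 gene (CsaV3_1G028400) had 103, 80.7 and 120 FPKM at 12 h, against 9.12, 7.97 and 9.10 FPKM at 3 h (limma, log2 change 3.45, adjusted p = 6.12e-10). Histone H3.2 (CsaV3_1G042610), a chromatin protein made mainly in dividing cells, returned to its level, with 8.10, 7.68 and 11.2 FPKM at 12 h, against 3.40, 2.27 and 2.01 FPKM at 3 h (limma, log2 change 1.64, adjusted p = 1.74e-05) and a mean of 11.2 FPKM at 0 h. In the list of DNA replication and histones 4 of the 13 early falls had ended, and the calls were 5 higher and 7 lower as deposited, 7 and 1 after median-ratio rescaling and 8 and 1 with quantile normalization.

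**Figure D5:**
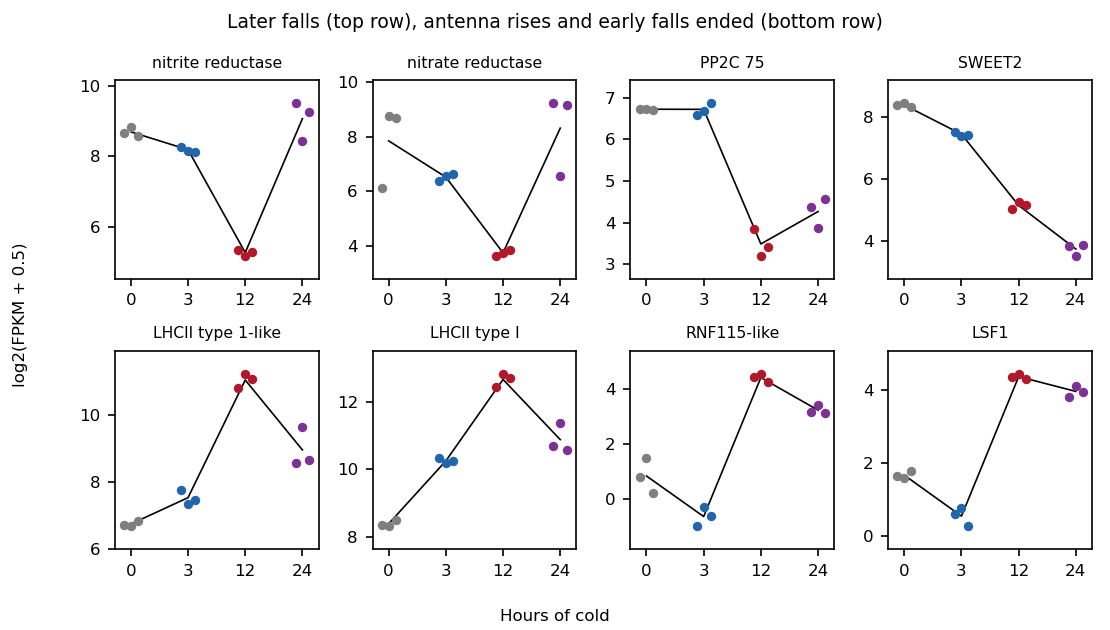
log2(FPKM + 0.5) of 4 later falls (top row), 2 antenna genes (bottom row, left) and 2 early falls that ended (bottom row, right), at 0, 3, 12 and 24 h of cold (evenly spaced on the x axis); each point is a library, 3 per time, and the line joins the means. Nitrite reductase lay at 35.9 to 40.3 FPKM at 12 h, against 281 to 308 FPKM at 3 h, and LSF1 at 19.1 to 21.3 FPKM at 12 h, against 0.705 to 1.20 FPKM at 3 h.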

How the data were processed

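Cucumber leaf RNA was sequenced at 0, 3, 12 and 24 h of cold, with 3 libraries at each time that the study calls biological replicates. The authors trimmed the reads (cutadapt 1.9 and FastQC are in the submitters' processing notes), aligned them to the cucumber Chinese Long V3 assembly with HISAT2, and deposited the FPKM of 24317 genes without read counts. The program behind the FPKM is not stated in the sources used here. Deposited tables of pairs of times, which add the authors' fold changes, p-values and q-values, were not used. The value 0.0001 that fills in for 0 was replaced by 0, and 3116 genes were then 0 in all 12 libraries.

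Genes reaching 0.5 FPKM in 3 or more of the 12 libraries (17497) were fitted as log2(FPKM + 0.5) with limma 3.58.1 in R 4.3.3. All libraries entered 1 fit (lmFit with no intercept, then eBayes with its trend and robust options). A call needed a log2 fold change beyond 1 in size and a Benjamini-Hochberg adjusted p, taken over every tested gene, under 0.05. Python 3.11.15 with pandas 2.3.3, numpy 2.4.6, scipy 1.17.1 and matplotlib 3.10.9 gave the tables and plots. In simulated data with 200 of 17497 genes changed, the test of 12 h against 3 h found 94% of those set to a log2 fold change of 1.5 and 100% of those set to 2, 3 or -2, and made 3 false calls. The changed genes were drawn only from those well above the low values at 3 h, and the noise was normal and independent between genes. The shares found therefore do not cover genes with low FPKM. Far fewer genes changed in the simulation than were called in the data. With 3 libraries a group the smallest exact permutation p is 0.1, so that test was left out.

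Named genes were called genes with a description, a mean of at least 5 FPKM at 3 or 12 h and no overlap between these times: the 8 highest and 8 lowest, the 5 largest of each class of ended or begun change, and the 2 highest and 2 lowest of each of 42 lists. Genes named outside this rule were chosen after their values were seen. The comparison, the lists and the rule were chosen with earlier results of these data known. Alternatives were a pseudocount of 0.1 or 1, no filter or 1 FPKM, quantile normalization, median-ratio rescaling, a fit of only the 6 libraries compared, a replicate block, each library of 0, 3 and 12 h left out, a fold threshold of 1.5 and an adjusted p under 0.01. No genome of this build was used, so no sequences or positions are given.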

Additional observations from a re-analysis of the deposited data

How the results depend on the processing

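The 6 counts of genes (higher and lower at 12 h than at 3 h, rises and falls ended, rises and falls begun) moved most with the scaling of the libraries and with the fold threshold. Median-ratio rescaling gave 1621 higher, 1759 lower, 910 rises begun and 591 falls begun. Quantile normalization gave 1658 higher, 1654 lower, 903 rises begun, 215 falls ended and 550 falls begun. A 1.5-fold threshold gave 2011 higher, 5472 lower, 1418 rises ended, 414 falls ended, 946 rises begun and 2453 falls begun. With a pseudocount of 0.1, 197 early falls had ended. Leaving out each library of 0, 3 and 12 h in turn gave 1048 to 1082 genes higher, 2560 to 2931 lower, 746 to 840 rises ended, 125 to 138 falls ended, 596 to 630 rises begun and 1026 to 1260 falls begun. The replicate numbers did not pair the libraries, since the deviations of 12 h and 3 h libraries of the same number correlated at -0.07, -0.16 and -0.00; with the replicate block 1050 genes were higher and 2680 lower. Of 158 named genes 0 changed direction under any setting, 10 lost the call under median-ratio or quantile scaling, 10 without some 1 library and 0 with the replicate block. The depth of the libraries is unknown, and values near 0 FPKM therefore have no counting interval.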

Other observations

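At 24 h many of the changes between 3 and 12 h had turned again. These values are a description without a test, because the classes were formed with the 12 h libraries. Of all 17497 tested genes, 5156 (29.5%) had every 24 h library above every 12 h library and 4732 (27.0%) had every 24 h library below. Of the 794 early rises that had ended at 12 h, 494 (62.2%) lay above at 24 h and 64 (8.06%) below. Of the 606 later rises, 86 (14.2%) lay above and 332 (54.8%) below. Of the 1094 later falls, 423 (38.7%) lay above and 185 (16.9%) below, and of the 128 early falls that had ended, 17 (13.3%) lay above and 78 (60.9%) below.

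Several genes of the early cold response were high at 3 h, low at 12 h and high again at 24 h. The dehydrin DHN1-like averaged 238 FPKM at 24 h, ERF105 148 FPKM, galactinol synthase 2-like 55.5 FPKM and the PAL gene CsaV3_6G039710 60.1 FPKM. Nitrite reductase, a later fall, averaged 562 FPKM at 24 h. The class I heat shock protein-like gene CsaV3_3G027480 and the GDSL esterase/lipase gene CsaV3_6G051230, both ended rises, stayed low at 24 h, at 0.275 and 0.812 FPKM.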
